A study of Mus musculus with 2 samples.

Results

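The genes described here are 9 members of the killing machinery of lymphocytes: the granzymes Gzma, Gzmb, Gzmk and Gzmm, perforin (Prf1), the granule proteins Nkg7, Srgn and Ctsw, and the Fas ligand gene Fasl. They were taken by symbol and are 9 of the 32285 genes of the deposited tables, and each symbol occurred once. They were measured by droplet single-cell RNA sequencing in live CD45+ CD31- cells sorted from hand-picked pancreatic islets of female mice aged 12 weeks. NOD mice develop autoimmune diabetes spontaneously. The groups were WT NOD mice, whose genotype is given as NOD, and NOD.Cxcl16-/- mice, NOD mice labelled as lacking the chemokine gene Cxcl16. Each group has 1 library, and how many mice were pooled into it is not given in the labels.

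Cytotoxic lymphocytes kill by releasing granules at the contact with a target cell. Perforin opens pores in the target's membrane, granzymes are serine proteases that enter through this route and cleave proteins inside the target, and serglycin, the product of Srgn, is the proteoglycan on which granzymes and perforin are stored. Fas ligand works outside this route, by engaging the death receptor Fas. In the islets of NOD mice, CD8 T cells are a main cell type held to destroy beta cells, and both routes have been studied there.

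Values come from 10718 WT NOD cells and 9323 cells of the library labelled NOD.Cxcl16-/-, with medians of 3858 and 4894 unique molecular identifiers (UMIs, counted cDNA molecules) per cell. Paired values are given in this order throughout, WT NOD first. Cells were assigned to gates by marker genes, none of which is a member. The CD8 gate held 2654 and 1577 cells, the CD4 gate 1307 and 1324, the Treg (Foxp3+) gate 281 and 431, the gamma-delta gate (CD3+ Trdc+ with no Trac) 258 and 203, and the NK gate (Ncr1+ without CD3) only 49 and 36. A gate of 1528 and 1838 B cells served as background, since free RNA in droplets can give a cell UMIs of genes it does not express. All 6 markers of CD8 T cells were detected in the CD8 gate, though all but Trac were used to set it. Cd8a and Cd8b1 were at 0 in the CD4 and Treg gates by construction, and the other 4 were detected there. The gamma-delta gate was mixed: 105 and 80 of its cells had 3 or more of 8 NK markers and 122 and 98 had at most 1. These markers are not confined to NK cells. At least 1 was detected in 52.7% and 52.3% of CD8 gate cells and in 97.7% and 97.2% of cells in a macrophage gate. The genotype label could not be checked from Cxcl16 itself. Its transcript stood at 103 and 102 counts per 1000000 UMIs (CPM) over all barcodes. In the kept cells it stood at 54.2 and 93.5 CPM, higher in the library labelled as lacking the gene. These values pool all cell types, whose mix differed: the macrophage gate held 44 and 176 cells. Among the T cell gates the transcript was higher in that library in the CD8 and Treg gates and lower in the CD4 and gamma-delta gates. The part of the cell mix in the pooled values was not tested. Where the deleted part of the gene lies is not given in the labels, and reads at the 3' end can fall outside it. The libraries shared 31 barcode sequences among the kept cells.

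Levels are CPM, the UMIs of a gene summed over the cells of a gate and divided by all UMIs of that gate, with exact Poisson intervals at the 95% level. Because each group has 1 library and cells are not replicates, no difference has a replicate check and no p-value is given. The intervals cover counting error only, and fewer expressing cells or less RNA in each lower a CPM alike. Shares of cells with a UMI are therefore given beside it for part of the results. Shares were compared after every cell was thinned to 2000 UMIs, which left out 580 and 88 shallower cells of the CD8 gate. A member counted as different between groups when its CPM differed past 1.5-fold, on the scale log2(CPM + 1), where both groups together had at least 20 UMIs and either reached 10 CPM. Intervals of log2 differences are exact binomial intervals of the CPM ratio without the added 1, so they are not centred on the difference printed. Levels are compared within a gene and never between genes, whose transcripts differ in how well they are captured.

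The 4 granzyme genes lie on 3 chromosomes. On GRCm38 with GENCODE annotation, Gzma (ENSMUSG00000023132) spans chr13:113093825-113100981 and Gzmk (ENSMUSG00000042385) chr13:113171608-113225908, both on the minus strand and 70626 bases apart with 0 protein-coding genes between them. Gzmb (ENSMUSG00000015437) lies at chr14:56258838-56262260 on the minus strand, in the cluster that also holds the granzyme genes Gzmc to Gzmg and Gzmn. Gzmm (ENSMUSG00000054206, chr10:79689020-79695261) and Prf1 (ENSMUSG00000037202, chr10:61297833-61304680) are on the plus strand of chromosome 10, and Srgn (ENSMUSG00000020077, chr10:62493833-62527451) is on its minus strand. Nkg7 (ENSMUSG00000004612) is at chr7:43437073-43438249, Fasl (ENSMUSG00000000817) at chr1:161780689-161788495 and Ctsw (ENSMUSG00000024910) at chr19:5465043-5468507. The span of Gzmk overlaps Esm1 and that of Ctsw overlaps Fibp, each on the opposite strand. Whether counting used the strand is not given in the sources used here, so reads of these overlapping pairs may not be told apart.

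The promoters of Gzmb, Prf1, Gzmk and Gzma are shown because most of the results turn on these members. RefSeq promoter sequences on GRCm38.p6 matched 8 of the 9 members, all but Ctsw. The 250 bases before each start are printed 5' to 3' on the gene's own strand, with matches in capitals to motifs of factors known for T cells and NK cells. The windows are chr14:56262335-56262584 for Gzmb, chr10:61297586-61297835 for Prf1, chr13:113180966-113181215 for Gzmk and chr13:113100982-113101231 for Gzma. They end at the RefSeq start, which can differ from the GENCODE one: the Gzmk window lies inside the GENCODE span of the gene.
Gzmb: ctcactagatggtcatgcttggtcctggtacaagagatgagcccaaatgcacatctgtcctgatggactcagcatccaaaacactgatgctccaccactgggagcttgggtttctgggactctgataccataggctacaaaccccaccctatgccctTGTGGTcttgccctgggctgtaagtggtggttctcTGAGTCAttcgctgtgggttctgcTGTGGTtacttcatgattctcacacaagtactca
Prf1: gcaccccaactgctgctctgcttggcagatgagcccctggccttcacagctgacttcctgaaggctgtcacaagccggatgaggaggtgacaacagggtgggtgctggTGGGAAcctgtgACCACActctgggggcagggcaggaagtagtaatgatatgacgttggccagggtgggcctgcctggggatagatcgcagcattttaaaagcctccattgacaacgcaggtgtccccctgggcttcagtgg
Gzmk: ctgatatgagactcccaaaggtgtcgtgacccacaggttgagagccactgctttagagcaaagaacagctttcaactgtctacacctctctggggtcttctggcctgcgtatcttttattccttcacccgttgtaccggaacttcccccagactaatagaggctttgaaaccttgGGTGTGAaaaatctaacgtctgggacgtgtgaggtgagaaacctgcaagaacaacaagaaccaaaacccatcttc
Gzma: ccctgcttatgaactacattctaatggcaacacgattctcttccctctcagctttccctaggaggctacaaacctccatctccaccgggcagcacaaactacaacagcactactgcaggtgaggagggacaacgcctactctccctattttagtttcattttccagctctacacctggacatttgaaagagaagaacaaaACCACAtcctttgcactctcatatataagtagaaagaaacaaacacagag

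The motifs searched on both strands were TGTGGT for Runx factors, GGTGTGA for T-box factors, TGANTCA for AP-1, TTCNNNGAA for STAT factors and TGGGAA for RBPJ, the factor of the Notch pathway. Among 32841 promoter windows of the same length, 14.0% held the Runx letters, 3.33% the T-box letters, 6.75% the AP-1 letters, 7.02% the STAT letters and 21.6% the RBPJ letters. Gzmb held TGTGGT at 93 to 88 and again at 34 to 29 bases before the start, with the AP-1 match TGAGTCA between them at 58 to 52. Prf1 held the RBPJ letters at 142 to 137 and the Runx letters, on the other strand, at 130 to 125. Gzmk held the T-box letters at 75 to 69, and Gzma the Runx letters, on the other strand, at 50 to 45. Of the members not printed, Nkg7 matched the T-box, Runx and STAT letters. Gzmm matched the Runx and STAT letters in 1 listed window and the T-box letters in the other, Srgn the Runx letters in 1 of its 2 windows, and Fasl none. A match describes letters in a window and shows neither binding nor regulation, and no match says only that these letters are not there.

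Gzma, a tryptase stored in the granules of NK cells and T cells, had its highest level in the NK gate. There it reached 5949.8 CPM (interval 5595 to 6321) and 5831 CPM (5452 to 6230). The gamma-delta gate followed with 629.8 and 918 CPM and the CD8 gate with 124 and 102 CPM. Below them the order of the CD4 and Treg gates differed between the libraries: the Treg gate had 67.4 and 11.3 CPM and the CD4 gate 3.07 and 31.1 CPM. The B gate stood at 1.48 and 0.563 CPM. Within the gamma-delta gate the level of Gzma moved with NK markers: cells with 3 or more had 1182 and 1850.1 CPM, and cells with at most 1 had 60.6 and 62.1 CPM. NK marker genes summed to 3605 and 4229.7 CPM in the former and 132 and 96.9 CPM in the latter. Cells with at most 1 NK marker thus had less Gzma than the CD8 gate in both libraries, and the order above is that of the mixed gate.

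Prf1, the pore-forming protein, followed the same order of gates. Its level was 403 CPM (315 to 508) and 517 CPM (409 to 646) in the NK gate, 78.1 and 119 CPM in the gamma-delta gate and 45.5 and 41.8 CPM in the CD8 gate. The CD4 gate had 5.20 and 6.47 CPM and the Treg gate 9.25 and 3.20 CPM, against 2.28 and 3.00 CPM in the B gate. Of these low gates, the intervals of the CD4 and Treg gates overlapped in both libraries. In the gamma-delta gate Prf1 stood at 134 and 217 CPM in cells with 3 or more NK markers and at 22.4 and 29.8 CPM in those with at most 1. The latter values were below those of the CD8 gate. For the other members the gamma-delta gate is given whole, with its cells that had NK markers.

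Gzmb, a protease that cleaves caspases in the target cell, was also highest in the NK gate, with 335 CPM (255 to 432) and 451 CPM (350 to 572). The CD8 gate had 119.6 and 92.7 CPM and the gamma-delta gate 72.2 and 104 CPM. In WT NOD 43 of the 85 Gzmb UMIs of the gamma-delta gate were in 1 cell, and 35.8 CPM remained without it. Regulatory T cells, which can use granzyme B themselves, had 41.3 and 77.4 CPM. That was above the CD4 gate, with 9.60 and 8.44 CPM, and the B gate, with 0.671 and 0.282 CPM. At 2000 UMIs per cell 6.75% and 7.69% of Treg gate cells had a Gzmb UMI, against 0.0704% and 0.167% of B gate cells.

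Gzmk, a tryptase of T cells that is found in cells short of full cytotoxic differentiation, had another order. It was highest in the CD8 gate, with 258 CPM (251 to 266) and 204 CPM (196 to 212). The CD4 gate had 54.8 and 40.3 CPM and the Treg gate 23.9 and 32.0 CPM. NK cells had 5 and 6 UMIs in all, or 28.4 and 39.8 CPM, with intervals that overlapped those of the CD4 and Treg gates. The gamma-delta gate had 14.4 and 8.21 CPM. Gzmk was therefore the granzyme for which CD8 and NK gates stood in reverse order to Gzma, Gzmb and Prf1, in both libraries.

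Gzmm, a granzyme that cleaves after methionine and related residues, was low everywhere. The gamma-delta gate had 22.1 CPM (14.4 to 32.3) and 14.4 CPM (7.86 to 24.1), and the CD8 gate 12.2 CPM (10.6 to 14.0) and 7.17 CPM (5.79 to 8.77). The NK gate had 0 UMIs in either library, which allows up to 17.0 and 19.9 CPM at 3 counts, so a level like that of the CD8 gate was not detectable at this depth. The CD4 gate held 11 and 15 UMIs and the Treg gate 1 and 2. The other granzymes of the Gzmb cluster, Gzmc, Gzmd, Gzme, Gzmf, Gzmg and Gzmn, had at most 1 UMI each in the CD8 gate of either library, and 0 of the 6 passed the filter in any comparison.

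**Figure D1:**
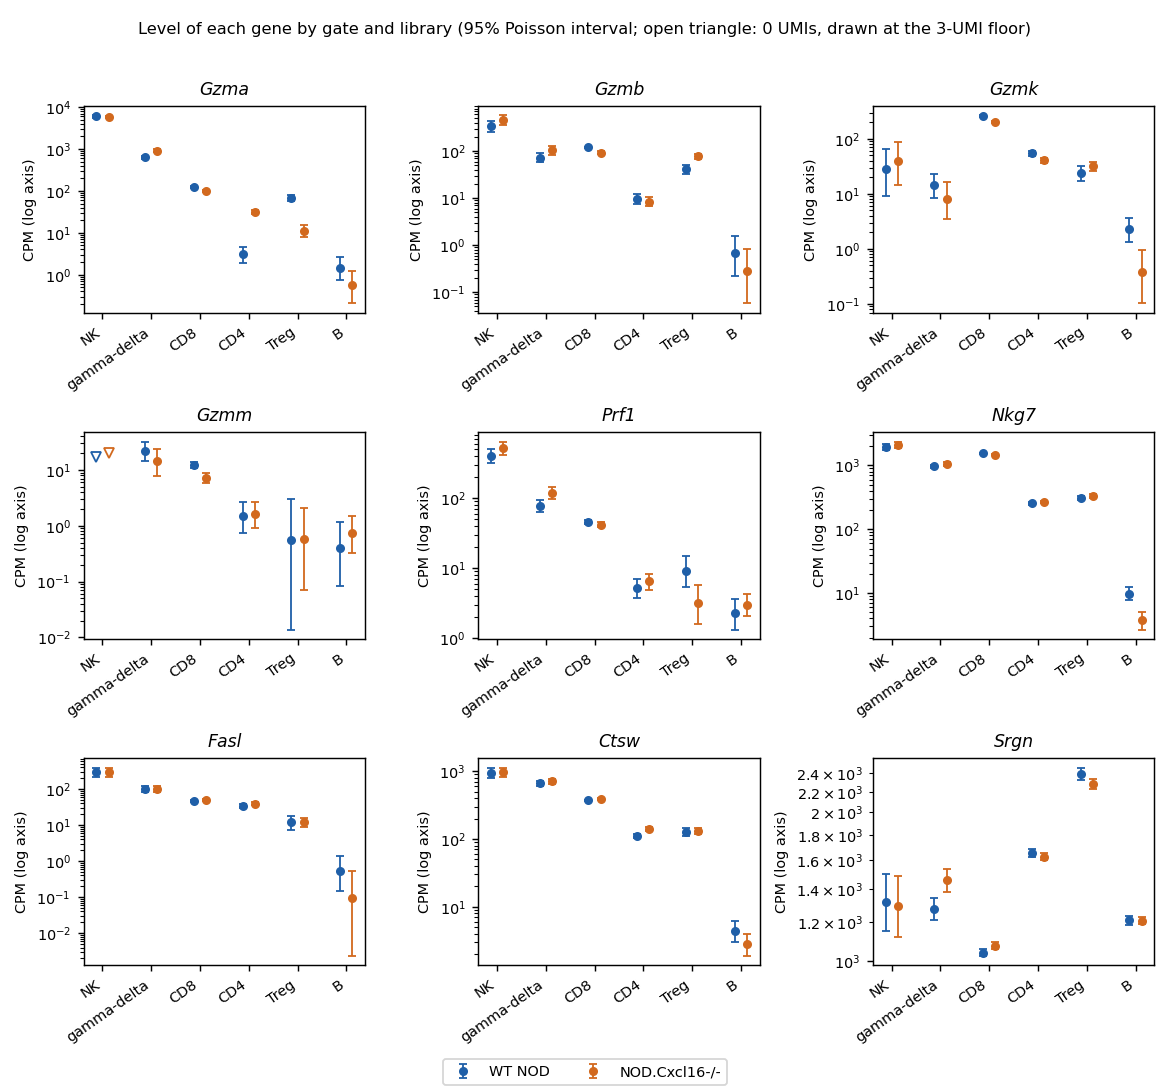
Level of the 9 genes in CPM, on a log axis, in 6 gates of WT NOD (blue) and the library labelled NOD.Cxcl16-/- (orange), with exact 95% Poisson intervals that cover counting error only. Gzma, Gzmb, Prf1, Nkg7, Fasl and Ctsw are highest in the NK gate, Gzmk in the CD8 gate and Srgn in the Treg gate; open triangles stand for 0 UMIs of Gzmm in the NK gate, drawn at the level of 3 counts.

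The remaining granule genes were broader. Nkg7, a membrane protein of cytotoxic granules needed for their efficient release, stood at 1942 and 2129.5 CPM in the NK gate, 1552 and 1469 CPM in the CD8 gate and 969 and 1062.5 CPM in the gamma-delta gate. The Treg gate had 311 and 333 CPM and the CD4 gate 255 and 270.5 CPM, against 9.80 and 3.76 CPM in the B gate. Ctsw, a papain-like cysteine protease of NK cells and CD8 T cells, was at 942 and 955 CPM in the NK gate, 658 and 704 CPM in the gamma-delta gate and 371 and 386 CPM in the CD8 gate. Its levels in the CD4 gate, 112 and 139.9 CPM, and in the Treg gate, 126 and 131 CPM, had overlapping intervals. Srgn was lowest in the CD8 gate of all gates shown, with 1041 and 1075 CPM, and highest in the Treg gate, with 2392 and 2283 CPM. B cells, which hold no cytotoxic granules, had 1209 CPM of Srgn in both libraries.

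Fasl, the membrane ligand of Fas, reached 295 CPM (220.5 to 387) and 292 CPM (212 to 392) in the NK gate, 101 and 102 CPM in the gamma-delta gate and 47.0 and 50.01 CPM in the CD8 gate. It had the smallest gap between CD8 and CD4 gates of the members that passed the filter in both libraries: the CD4 gate had 33.3 CPM (29.3 to 37.7) and 39.0 CPM (35.1 to 43.3). The Treg gate had 12.0 and 11.9 CPM and the B gate 4 UMIs and 1 UMI. At 2000 UMIs per cell, 10.4% and 10.7% of CD8 gate cells, 7.82% and 9.20% of CD4 gate cells and 0.0704% of B gate cells in WT NOD and 0 of 1795 (interval up to 0.205%) in the other library had a Fasl UMI. Median depths before thinning were 4619 and 5615 UMIs in the CD8 gate, 4171 and 4730.5 in the CD4 gate and 4471.5 and 4587 in the B gate.

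Set side by side within each library, the CD8 gate exceeded the CD4 gate past 1.5-fold in 7 of 9 members in WT NOD and in 6 of the 8 that passed the filter in the library labelled NOD.Cxcl16-/-. Of all genes tested in those comparisons, 17% and 12.1% differed past 1.5-fold in either direction. Those higher in the CD8 gate were 472 of 7913 genes in WT NOD and 317 of 7875 in the other library. The log2 differences were 3.51 and 3.31 for Gzmb, 2.91 and 2.52 for Prf1, 2.60 and 2.44 for Nkg7, 2.22 and 2.31 for Gzmk and 1.72 and 1.46 for Ctsw. That of Gzma was 4.94 in WT NOD and 1.68 in the other library, where 147 of the 284 Gzma UMIs of the CD4 gate were in 1 cell. Srgn was lower in the CD8 gate, by -0.67 and -0.60, and Fasl differed by less than 1.5-fold, by 0.48 and 0.35. The median over the members that passed was 2.42 and 1.99, beside -0.05 and -0.02 over all genes.

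Expression within the CD8 gate was spread very unevenly over cells. Gzma was seen in 210 and 107 cells, 7.91% and 6.79% of the gate, and 16 and 8 cells held 50% of all its UMIs. The cells highest for it carried 129 and 141 UMIs. Gzmb was seen in 444 and 257 cells (16.7% and 16.3%), and 51 and 29 cells held 50% of its UMIs. These few cells set the CPM of both genes, so the level of Gzma or Gzmb in the CD8 gate describes few cells. Gzmk was detected in 48.3% and 45.2% of cells, with 218 and 132 cells holding 50% of its UMIs, and no cell held more than 44.

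The other members were carried by many cells. Nkg7 was detected in 89.3% and 91.1% of CD8 gate cells before thinning and in 82.4% and 79.9% at 2000 UMIs, against 0.775% and 0.613% of B gate cells. Ctsw was detected in 51.7% and 53.3% and Srgn in 84.5% and 83.3% at 2000 UMIs. Prf1 was found in 8.15% (7.01 to 9.41) and 10.7% (9.15 to 12.4) at that depth, at 1.51 and 1.37 UMIs per cell with any UMI before thinning. Its share before thinning was 19.4% and 25.4%, so the deeper library showed more positive cells at both depths. Its CPM, 45.5 and 41.8, was in the reverse order, and no order is read from the share.

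Co-detection asks whether the genes were found in the same cells. In the CD8 gate at 2000 UMIs, Gzmb was found in 38.7% (29.6 to 48.5) of 111 Gzma+ cells and 9.42% (8.17 to 10.8) of Gzma- cells of WT NOD. In the library labelled NOD.Cxcl16-/- it was found in 50.9% (37.3 to 64.4) of 57 Gzma+ cells and 7.12% (5.84 to 8.58) of Gzma- cells. Gzmk was also found more often in Gzma+ than in Gzma- cells, in 60.4% against 30.2% of WT NOD cells and in 43.9% against 25.5% in the other library. Prf1 was found in 18.9% and 20.6% of Gzmb+ cells and in 6.83% and 9.72% of Gzmb- cells. Cells with UMIs of both Gzmb and Prf1 were 2.07% (1.504 to 2.78) and 1.81% (1.20 to 2.63) of the thinned cells. Without thinning they were 6.48% and 6.15%.

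Fasl went with Gzmb as well: it was detected in 23.7% and 30.5% of Gzmb+ cells and in 8.78% and 8.76% of Gzmb- cells. Gzmk was found in 50.4% and 45.8% of Gzmb+ cells, against 29.5% and 24.3% of the others, so Gzmb+ cells had Gzmk more often and not less. Gzmm did not follow Gzmb, with 1.75% and 0.763% of Gzmb+ cells and 2.11% and 1.25% of Gzmb- cells positive, from 4 cells and 1 cell. Ctsw was detected in 56.6% and 51.9% of Gzmb+ cells and 51.1% and 53.5% of Gzmb- cells, with overlapping intervals. Thinning gives every cell the same number of UMIs, yet cells still differ in state and in total RNA, and the part of either in these shares was not tested.

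**Figure D2:**
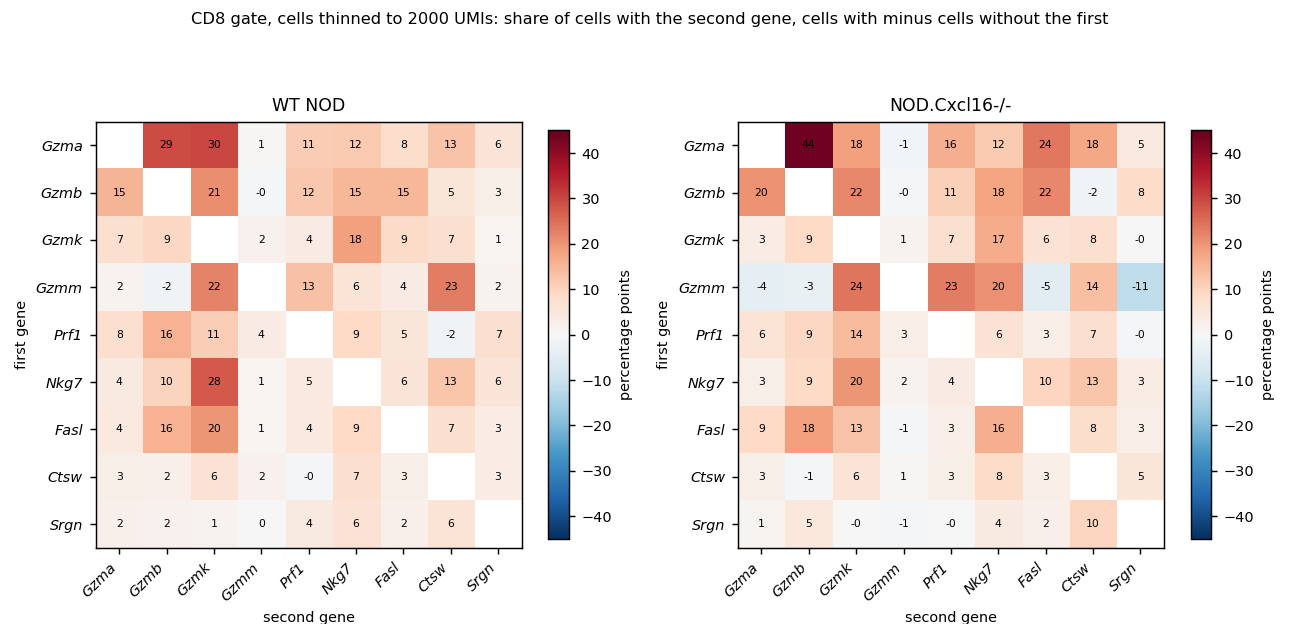
Co-detection of the 9 genes in CD8 gate cells thinned to 2000 UMIs, for WT NOD (left) and the library labelled NOD.Cxcl16-/- (right). Each square gives the share of cells with the second gene among cells with the first minus that among cells without it, in percentage points; Gzma to Gzmb is the darkest square between granzymes in the right panel, and Gzmm rows rest on 43 and 18 positive cells.

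Most CD8 gate cells had no granzyme UMI at this depth. Counting Gzma, Gzmb, Gzmk and Gzmm, 60.3% and 67.3% of the thinned cells had none, 31.0% and 26.4% had 1 and 8.73% (7.55 to 10.0) and 6.31% (5.13 to 7.67) had 2 or more. In the NK gate 31.6% and 41.2% of 38 and 34 thinned cells had 2 or more, and in the CD4 gate 0.168% and 0.701% did. None of 1420 and 1795 B gate cells had 2 or more, which allows shares up to 0.259% and 0.205%. Of the Gzma+ cells of the NK gate, 59.3% of 27 and 87.5% of 24 also had Prf1. In the gamma-delta gate Prf1 was found in 14 of 40 and 19 of 35 Gzma+ cells and in 4.97% and 7.64% of Gzma- cells. The pair of Gzmb and Prf1 was also read in cycling and non-cycling CD8 gate cells. Among non-cycling cells 21.6% and 25.4% of Gzmb+ cells and 6.88% and 9.93% of Gzmb- cells had Prf1. Among cycling cells of WT NOD the shares were 15.7% (9.24 to 24.2) and 7.01% (5.05 to 9.42), and in the other library 9.38% (1.98 to 25.0), from 3 of 32 cells, and 9.88%.

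Subsets of the CD8 gate differed in these genes. Cells were divided by markers that are no members: cycling cells first, then cells with Entpd1 or Havcr2, genes of activated and exhausted T cells, then cells with Xcl1 or Cd160. Cells of the gate outside these 3 subsets are not described here. The Entpd1 or Havcr2 cells (270 and 206) had 279 CPM (253 to 307) and 392 CPM (359 to 426) of Gzmb. The Xcl1 or Cd160 cells (554 and 451) had 47.5 and 22.9 CPM. Cycling cells had 141 and 66.0 CPM. In both libraries Gzmb was thus highest in the Entpd1 or Havcr2 cells of the 3 subsets, with intervals apart. Shares of positive cells are not given for the Entpd1 or Havcr2 and the Xcl1 or Cd160 cells. How many cells carried these levels is thus not shown, and the intervals cover counting error only.

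Fasl, Prf1 and Nkg7 were likewise highest in the Entpd1 or Havcr2 cells of these subsets, with intervals apart in both libraries. Fasl was at 106 and 129.8 CPM there, against 28.9 and 39.1 CPM in Xcl1 or Cd160 cells and 40.8 and 37.5 CPM in cycling cells. Prf1 stood at 97.7 and 79.8 CPM in the Entpd1 or Havcr2 cells and at 38.0 and 38.7 CPM in the Xcl1 or Cd160 cells. Nkg7 was at 2891 and 2505 CPM in the former and at 1565 and 1445 CPM in the latter.

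Gzmk, Ctsw and Gzmm were distributed differently. Gzmk was at 300.5 and 250.2 CPM in Entpd1 or Havcr2 cells and at 303 and 234 CPM in cycling cells, with overlapping intervals, and at 183 and 152 CPM in Xcl1 or Cd160 cells. Ctsw was higher in Xcl1 or Cd160 cells (546 and 588 CPM) than in Entpd1 or Havcr2 cells (414 and 375 CPM), the reverse of Gzmb. Gzmm had 12.8 and 1.45 CPM in Entpd1 or Havcr2 cells, from 19 UMIs and 2 UMIs, and 17.2 and 8.25 CPM in Xcl1 or Cd160 cells. Gzma was at 175 and 198 CPM in the Entpd1 or Havcr2 cells. In the library labelled NOD.Cxcl16-/- 109 of those 273 UMIs were in 1 cell.

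**Figure D3:**
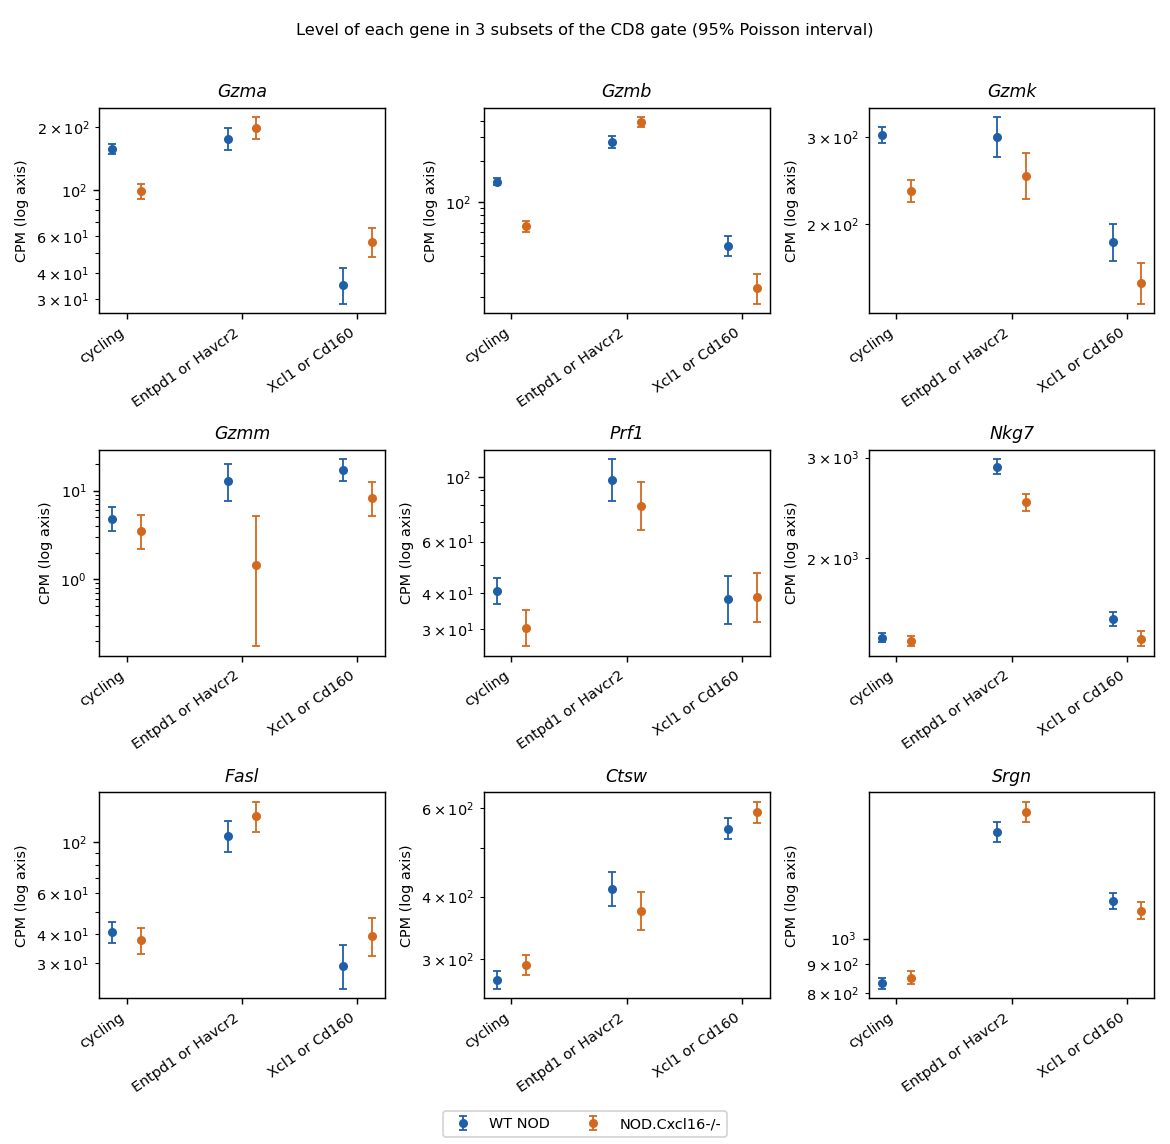
Level of the 9 genes in CPM, on a log axis, in 3 subsets of the CD8 gate of WT NOD (blue) and the library labelled NOD.Cxcl16-/- (orange), with exact 95% Poisson intervals. Gzmb, Prf1, Fasl, Nkg7 and Srgn are highest of the 3 in cells with Entpd1 or Havcr2 in both libraries, while Ctsw is higher in cells with Xcl1 or Cd160 than in cells with Entpd1 or Havcr2.

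Cycling CD8 gate cells, with 2 or more of 15 proliferation genes detected, were 865 (32.6%) and 387 (24.5%) of the gate. They were compared with 1253 and 817 cells that had none, and 536 and 373 cells with exactly 1 stood near the limit and entered neither group. In WT NOD, 5 of the 9 members differed past 1.5-fold, where 33.2% of all genes did: 2 were higher in cycling cells and 3 lower. In the library labelled NOD.Cxcl16-/- 4 of the 8 that passed the filter were lower and none higher, where 33% of all genes differed. The median over the members was -0.29 and -0.63 on the log2 scale, beside -0.02 over all genes in both.

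Gzmk was higher in cycling cells in both libraries, though past 1.5-fold in WT NOD alone: 194 CPM in non-cycling and 303 CPM in cycling cells there (log2 difference 0.64, 0.54 to 0.74), and 169 and 234 CPM in the other library (0.46, 0.34 to 0.59). Ctsw was lower in cycling cells in both, from 479 to 273 CPM (-0.81) and from 480.0 to 292 CPM (-0.71). Srgn was lower as well, by -0.63 and -0.56, which is past 1.5-fold in WT NOD alone. Gzmm was at 19.7 CPM in non-cycling and 4.82 CPM in cycling cells of WT NOD (-1.83, -2.57 to -1.51), and held 43 UMIs and 22 UMIs in the 2 groups of the other library, at 9.87 and 3.47 CPM, below the filter. Nkg7 differed by -0.14 and -0.03.

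Gzmb was the member for which the libraries stood on opposite sides. In WT NOD it had 80.1 CPM (72.8 to 88.0) in non-cycling and 141 CPM (134 to 149) in cycling cells, a log2 difference of 0.81 (0.66 to 0.98). In the library labelled NOD.Cxcl16-/- it had 136 CPM (125 to 147) in non-cycling and 66.0 CPM (59.8 to 72.6) in cycling cells, a difference of -1.03 (-1.23 to -0.86). At 2000 UMIs per cell the shares of Gzmb+ cells were 7.59% (6.01 to 9.43) of non-cycling and 15.2% (12.5 to 18.1) of cycling cells in WT NOD. In the other library they were 9.39% (7.41 to 11.7) and 8.51% (5.89 to 11.8), with overlapping intervals. Depth moved with this difference: cycling cells had medians of 6355 and 12971 UMIs and non-cycling cells 4236 and 4901. Among cells of 2000 to 10000 UMIs, a range chosen after the data were seen, the log2 difference was 1.23 in WT NOD and -0.08 in the library labelled NOD.Cxcl16-/-, past 1.5-fold in the first alone. With doublets kept the WT NOD difference was 0.53, within 1.5-fold. In the library labelled NOD.Cxcl16-/- 12 cells held 50% of the Gzmb UMIs of the non-cycling group. The difference between the libraries was not tested.

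Prf1 and Fasl were lower in cycling cells, past 1.5-fold in the library labelled NOD.Cxcl16-/- alone. Prf1 stood at 50.1 CPM in non-cycling and 40.7 CPM in cycling cells of WT NOD (-0.29) and at 52.1 and 30.4 CPM in the other library (-0.76, -1.06 to -0.49). Fasl stood at 55.2 and 40.8 CPM (-0.43) and at 61.3 and 37.5 CPM (-0.69, -0.97 to -0.45). For both, the direction in the library labelled NOD.Cxcl16-/- turned among cells of 2000 to 10000 UMIs, to 0.37 for Prf1 and 0.08 for Fasl. Cycling cells had less Ctsw in the CD4 and Treg gates and less Fasl in the CD4 gate, in both libraries. Fasl was at 45.1 CPM in non-cycling and 14.0 CPM in cycling CD4 gate cells of WT NOD and at 51.4 and 14.2 CPM in the other library, with intervals apart. Ctsw was at 160.1 and 70.1 CPM in the Treg gate of WT NOD and at 191 and 78.3 CPM in the other. Gzmk in the CD4 gate was at 47.3 and 68.1 CPM in WT NOD and at 43.7 and 30.8 CPM in the other library, and Gzmb in the Treg gate at 52.9 and 24.3 CPM and at 83.4 and 72.2 CPM. Cycling cells of the NK gate numbered 2 and 1 and those of the gamma-delta gate 12 and 8, too few for a level.

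Gzma in the CD8 gate was at 106 and 156 CPM in WT NOD (0.55) and at 106 and 98.5 CPM in the other library (-0.11), from 8 cells that held 50% of its cycling UMIs in the first and 4 in the second. Among cells of 2000 to 10000 UMIs the second difference was -2.11, past 1.5-fold, and with cycling called from 3 genes it was 0.0670.

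**Figure D4:**
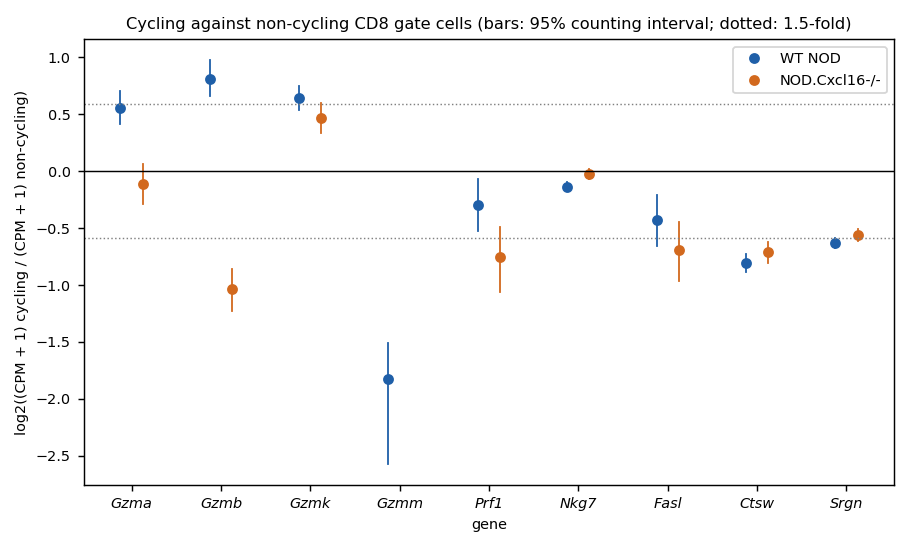
Log2 ratio of CPM + 1 in cycling over non-cycling CD8 gate cells for the 9 genes, in WT NOD (blue) and the library labelled NOD.Cxcl16-/- (orange), with 95% counting intervals and dotted lines at 1.5-fold. The intervals are those of the ratio without the added 1. Gzmb lies at 0.81 in WT NOD and -1.03 in the other library; Gzmm has no point in the latter because it was below the filter.

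Between the libraries, the members of the CD8 gate differed little. Of the 9, which all passed the filter, 1 was lower past 1.5-fold in the library labelled NOD.Cxcl16-/- and none higher, where 2.5% of all genes differed past 1.5-fold. The member was Gzmm, at 12.2 and 7.17 CPM, a log2 difference of -0.70 (-1.14 to -0.41). Gzma, Gzmb and Gzmk were lower by -0.28, -0.36 (-0.47 to -0.26) and -0.34 (-0.41 to -0.27), all within 1.5-fold. Prf1 differed by -0.12, Nkg7 by -0.08, Fasl by 0.09, Ctsw by 0.06 and Srgn by 0.05. The median over the members was -0.12, beside 0.04 over all genes. For Gzmb the levels within the gate went both ways: in non-cycling cells alone it was higher in the library labelled NOD.Cxcl16-/- past 1.5-fold, by 0.76 (80.1 and 136 CPM), and in cycling cells it was lower there (141 and 66.0 CPM). With each cell weighted alike it differed by 0.08. The Gzmm difference was -0.49 with doublets kept, -0.54 with each cell weighted alike and -0.37 with a pseudocount of 10 CPM, all within 1.5-fold. Markers of islet and acinar cells, which T cells should lack, summed to 44.4 and 126 CPM in the CD8 gate, and their part in these values was not tested.

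In the CD4 gate 1 of the 6 members that passed the filter differed past 1.5-fold, where 2.35% of all genes did. This was Gzma, with 23 UMIs in 14 cells of WT NOD and 284 UMIs in 24 cells of the other library (log2 difference 2.98, 2.73 to 4.03). In the latter 147 UMIs were in 1 cell, and 15.0 CPM remained without it against 2.14 CPM without the top cell of WT NOD, a difference of 2.36. With doublets kept the difference was 1.09. At 2000 UMIs 0.505% and 0.701% of CD4 gate cells were positive, with overlapping intervals, and 0.352% and 0.111% of B gate cells were. NK markers, which are not confined to NK cells, summed to 99.4 and 115 CPM in the CD4 gate, and their part in the result was not tested. Gzmk was lower by -0.43 and Ctsw higher by 0.32, both within 1.5-fold.

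In the Treg gate 2 of the 7 that passed differed, where 8.81% of all genes did. Gzmb was higher in the library labelled NOD.Cxcl16-/- by 0.89 (0.53 to 1.29), at 41.3 and 77.4 CPM. The share of Treg gate cells with Gzmb was nearly the same in both, 12.8% and 13.0% before thinning, and positive cells carried 2.11 and 4.75 UMIs on average. Requiring 2 UMIs of each gate marker left 0.47, within 1.5-fold. Gzma was lower by -2.47 (-3.13 to -2.04), from 10 positive cells in each library, of which 1 carried 45 of 124 UMIs in WT NOD and 1 carried 25 of 39 in the other. The remaining members of the Treg gate lay within 1.5-fold.

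The NK gate showed no member past 1.5-fold among the 7 that passed the filter, where 24.3% of all genes were past it in these small groups. Gzmb differed by 0.43 (-0.10 to 0.96) and Prf1 by 0.36 (-0.12 to 0.84), and Gzma by -0.03 (-0.16 to 0.10). In the gamma-delta gate 3 of 9 members were past 1.5-fold, where 16.1% of all genes were. Prf1 was higher in the library labelled NOD.Cxcl16-/- by 0.60 (0.20 to 1.02), and Gzmk and Gzmm were lower by -0.74 and -0.59 with intervals that included 0. These calls were lost under several alternatives: Prf1 stayed past 1.5-fold in 8 of 13, Gzmk in 6 of 9 and Gzmm in 8 of 11. Gzma and Gzmb differed by 0.54 and 0.52, within 1.5-fold. Without the top cell of each library Gzmb was at 35.8 and 84.6 CPM, against 72.2 and 104 CPM with it. NK markers summed to 2000.7 and 2212 CPM over the gate, and their part in the result was not tested. Among cells with at most 1 NK marker Prf1 was at 22.4 and 29.8 CPM, from 10 and 12 UMIs.

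**Figure D5:**
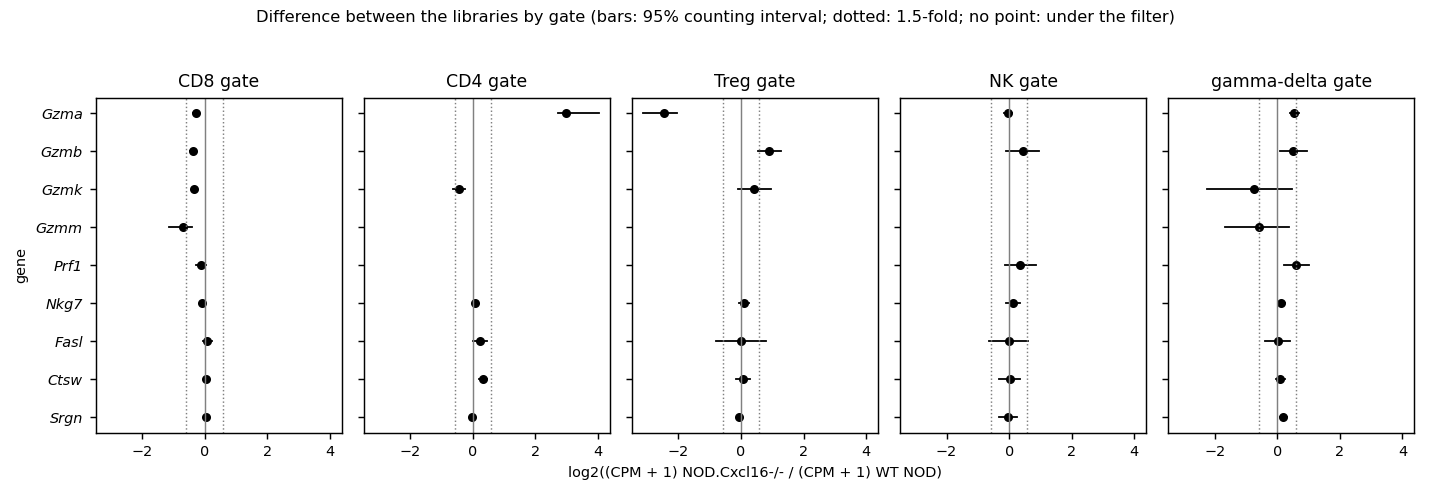
Log2 ratio of CPM + 1 in the library labelled NOD.Cxcl16-/- over WT NOD for the 9 genes in 5 gates, with 95% counting intervals and dotted lines at 1.5-fold. The intervals are those of the ratio without the added 1. The CD8 gate has all points between -0.70 and 0.09, the points of Gzma in the CD4 gate (2.98) and the Treg gate (-2.47) lie on opposite sides, and genes without a point were below the filter.

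Genes that act with the members were read from lists. Of 9 genes for granzyme maturation and inhibition, 7 passed the filter in the CD8 gate and 1 was higher past 1.5-fold in the library labelled NOD.Cxcl16-/-. It was Ctsh, a cathepsin, at 20.98 and 32.6 CPM (0.61), named after its value was seen. The most abundant of the list were Serpinb6a, a serpin that inhibits serine proteases, at 71.7 and 83.9 CPM, Cst7, the cathepsin inhibitor cystatin F, at 65.0 and 77.3 CPM, and Ctsc, which activates granzymes by removing a dipeptide, at 51.3 and 60.5 CPM. None of 11 genes for granule release, of the 8 of 11 death ligands, receptors and cytokines that passed, or of 10 transcriptional regulators differed past 1.5-fold between the libraries in that gate. Over all genes 2.5% did in either direction, so none in a list of this size lies near that share. Ifng, the cytokine of type 1 immunity, was at 176 and 133 CPM (-0.40), and Vamp8, a vesicle fusion protein, at 152 and 163 CPM.

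The same lists were read between the CD8 and CD4 gates. Runx3, a factor of the CD8 lineage, was at 237 CPM in the CD8 and 109 CPM in the CD4 gate of WT NOD (1.11) and differed by 1.05 in the other library. Stx11, a syntaxin needed for granule release, was lower in the CD8 gate by -0.99 and -1.003, and Cst7 was higher by 0.96 and 0.98. Eomes, a T-box factor of effector and memory CD8 T cells and of NK cells, named after its values were seen, was at 97.3 and 7.06 CPM in WT NOD (3.61) and differed by 4.22 in the other. Of the 10 regulators, 3 were higher and 3 lower in WT NOD, and 3 higher and 2 lower in the other library, where 17% and 12.1% of all genes differed past 1.5-fold.

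In cycling against non-cycling CD8 gate cells, Tcf7, a factor of naive, memory and stem-like T cells, was at 226 CPM in non-cycling and 83.8 CPM in cycling cells of WT NOD (-1.42) and at 244 and 104 CPM in the other library (-1.22). Of 11 genes for granule release 1 was higher and 2 were lower in each library, and of 10 regulators none was higher and 2 and 3 were lower, where 33.2% and 33% of all genes differed past 1.5-fold. Runx3 differed by -0.18 and -0.19.

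The genes whose levels ran most like a member's were taken from 4960 genes over 16 points, the T cell and NK gates split into cycling and non-cycling cells in both libraries where a group had 20 cells. As a description, with points that share libraries and depth, the closest to Gzma were Chsy1 (Pearson r 0.96) and Klri2 (0.95), and the same pair was closest to Prf1 (0.97 and 0.97). Tacc1 was among the 2 closest to Gzmb (0.90), and the closest to Gzmk were Rgs16 (0.88) and Cd8b1 (0.87). Cd8b1 was used to set the gates and is absent by construction from all of these but the CD8 gate. Its value therefore only restates that Gzmk was highest there. Nkg7 ran most like Ctla2a (0.96) and Ccl5 (0.95), and Ctsw like Ctla2a (0.97) and Hgsnat (0.97). The closest to Fasl were Prex1 and Ero1lb (0.96 each) and to Srgn Zfp36l1 and Foxo1 (0.94 each), and Trgv2 (0.86) was among the 2 closest to Gzmm.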

How the data were processed

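The deposited tables hold raw counts of UMIs per gene and barcode, whole numbers made by the authors with Cell Ranger 7.0.1 on mm10, per the submitters' processing notes. Libraries used 10x Genomics 3' chemistry, per the labels' protocols. They held 13859 and 10554 barcodes with 93553185 and 98681133 UMIs. Barcodes with under 500 genes or over 10% mitochondrial UMIs were left out. Barcodes called doublets against simulated ones (2 per barcode, 0.8% expected per 1000 barcodes) were left out too. They were 1537 and 891 of all barcodes, counted whether or not they passed the other filters. Gates used raw UMIs of lineage markers, at least 1 UMI each. Barcodes with 2 or more B cell or 3 or more myeloid UMIs stayed out of T cell and NK gates. Counts were summed per gate and turned into CPM. Poisson intervals for CPM and exact Clopper-Pearson intervals for shares are at the 95% level and cover counting error only. Intervals of log2 differences, at the same level, are exact binomial intervals from the UMI counts, with nothing added to either CPM. With 1 library per group no test was run. Tables were computed with Python 3.11.15, numpy 2.4.6, scipy 1.17.1, pandas 2.3.3 and scikit-learn 1.9.0 and drawn with matplotlib 3.10.9, and the code was tested on simulated data.

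The text names the 9 members, at most 4 genes per related list by their CPM in the CD8 gate, and the 2 genes most like each member among those reaching 50 CPM, correlated as log2(CPM + 10). Genes outside this rule are said to be. The members and lists were chosen with earlier results of these data known. Alternatives covered filters, doublets, gates, scaling, thinning, the pseudocount and the cycling call. Some genes, and subsets and results that rest on them, are not reported here.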

Additional observations from a re-analysis of the deposited data

Results flagged for a closer look

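In each of these results the intervals of 2 groups lay on opposite sides of 0 under the same contrast. With 1 library per group none of these differences was tested. The log2 ratio of Gzmb in cycling over non-cycling CD8 gate cells was 0.81 in WT NOD and -1.03 in the library labelled NOD.Cxcl16-/-. Among cells of 2000 to 10000 UMIs the second was -0.08, and with doublets kept the first was 0.53, within 1.5-fold. For the library labelled NOD.Cxcl16-/- over WT NOD, the log2 ratio of Gzma was -0.28 in the CD8 gate, 2.98 in the CD4 gate, -2.47 in the Treg gate and 0.54 in the gamma-delta gate. That of Gzmb was -0.36 in the CD8 gate, 0.89 in the Treg gate and 0.52 in the gamma-delta gate. That of Nkg7 was -0.0799 in the CD8 gate and 0.13 in the gamma-delta gate. That of Srgn was 0.0467 in the CD8 gate, -0.0671 in the Treg gate and 0.19 in the gamma-delta gate. All these Nkg7 and Srgn values were within 1.5-fold. The Srgn value of the CD8 gate lay near the median over all genes there, 0.04, and changed sign in 3 of 13 alternatives. Single cells held a large part of the Gzma UMIs in the CD4 gate of the library labelled NOD.Cxcl16-/- and in the Treg gate of both, as given above.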

How the results depend on the processing

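No paired analysis was possible because each group has 1 library and the labels give no replicate numbers; for the same reason no library could be left out in turn. Of the results on single members under all alternatives, 477 stayed within the counting interval of the value reported, 125 moved beyond it and 2 that had been past 1.5-fold changed sign: in the library labelled NOD.Cxcl16-/-, cells of 2000 to 10000 UMIs gave cycling over non-cycling log2 ratios of 0.37 for Prf1 and 0.0756 for Fasl. Values within 1.5-fold were followed only for the CD8 gate, between libraries and between cycling and non-cycling cells, and not for the other gates. They changed sign in 17 further cases: between libraries for Gzma, Gzmb, Prf1 and Srgn, and in cycling over non-cycling cells for Gzma, Prf1 and Nkg7. Of these Gzmb in non-cycling cells alone, at 0.76, was past 1.5-fold. Of the counts of members past 1.5-fold and the co-detection shares, 109 stayed and 19 moved. Between libraries, the CD8 gate count of 1 was 0 with doublets kept, with cells weighted alike (a mean over CPM per cell) and with a pseudocount of 10 CPM, and 2 in non-cycling cells alone. The NK gate count of 0 was 2 with doublets kept. The gamma-delta gate count of 3 was 1 without barcodes under 1500 UMIs, with 2 UMIs of each gate marker and with at most 1 NK marker, and 0 with a pseudocount of 10 CPM. The Treg gate count of 2 was 5 with cells weighted alike. The cycling count of 5 in WT NOD was 2 with doublets kept and in cells of 2000 to 10000 UMIs, and 3 with cells weighted alike. That of 4 in the other library was 1 in cells thinned to 2000 UMIs and 2 with cells weighted alike. The share of CD8 gate cells with Gzmb and Prf1 was 0.475% and 0.703% at 1000 UMIs and 6.48% and 6.15% without thinning. The cause was not tested. Non-cycling cells alone, at most 1 NK marker, the range of 2000 to 10000 UMIs and leaving out top cells were chosen after seeing the data.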
